A study of Homo sapiens with 28 samples.

Results

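The integrins and laminins are 38 protein-coding genes, 26 integrin chains and 12 laminin chains, of the 60483 genes with an identifier in the count table of 2 human lung adenocarcinoma cell lines, A549 and H1944. They were taken by symbol alone, as every gene named ITGA or ITGB with a number or letter and every gene named LAMA, LAMB or LAMC with a number. Both lines carried MGT#1-mVenus, a fluorescent reporter, and were sequenced as total RNA in 28 libraries of 10 groups. Naive cells of each line had received neither agent and were not sorted. The treated cells had been kept for 11 days in GSK126 (5 µM), which blocks the histone methyltransferase EZH2, or in TGF-β1 at 5 ng/ml, a cytokine known to induce epithelial-mesenchymal transition, and were then sorted into a gate of low and a gate of high mVenus. Each group had 3 libraries, named A, B and C, except the high GSK126 gate of A549 (A and B) and the low TGF-β1 gate of A549 (A and C). The labels do not say that the letters are separate cultures, so p-values measure the spread between these libraries, which may be technical.

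Integrins are receptors in the cell membrane, each made of an alpha and a beta chain, that bind matrix proteins or counter-receptors outside the cell and couple to the actin or keratin cytoskeleton inside it. Laminins are secreted trimers of an alpha, a beta and a gamma chain that build the sheet of basement membrane under epithelia, where the integrins of the ITGA3, ITGA6 and ITGB4 type hold on to them. Some ITGAV integrins also bind and activate latent TGF-β, and TGF-β in turn is known to raise matrix and integrin genes in many epithelial cells.

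Total counts per library ran from 1660148 to 13280592. The epithelial keratin KRT8 averaged 1123 CPM (the count of a gene as a scaled share of the library's total count) or more in every group, while the lung adenocarcinoma markers NKX2-1 and NAPSA were near background, with group means of at most 0.612 and 1.81 CPM. The summed level of the 8 epithelial markers, these 3 included, was lower under TGF-β1. It was 12187 to 12798 CPM in naive A549 and 5003 to 7385 in its high TGF-β1 gate, and 4991 to 5622 in naive H1944 and 1497 to 1665 in its high TGF-β1 gate. KRT8 itself averaged 6284 CPM in naive A549 and 3015 in naive H1944. The mean of CDH1, E-cadherin, was 63.3 CPM in naive A549 and 4.30 in its high TGF-β1 gate, and in H1944 it was 271 and 9.13. EPCAM stood at 80.0 and 7.86 CPM in the same H1944 groups. KRT7 went the other way in A549, from 2041 to 3579 CPM. Under GSK126 the 8 summed to 8035 to 10775 CPM in A549 and 4945 to 7685 in H1944. CDH1 was below naive there too, at 6.23 (low) and 7.86 CPM (high) in A549 and 118 and 76.4 in H1944. EPCAM averaged 8.51 and 8.15 CPM in the GSK126 gates of A549, against 14.1 in naive cells. In H1944 EPCAM stood above naive under GSK126, at 108 and 87.1 CPM. The part of these shifts in the changes of integrin and laminin genes was not tested. Reads over 378 olfactory receptor genes, which these cells are not known to use, summed to 201 CPM in naive library A of A549 and to 310 CPM in its TGF-β1 high library B, and to at most 124 CPM in every other library. The 6 chains typical of leukocytes (ITGAD, ITGAL, ITGAM, ITGAX, ITGB2 and ITGB7) summed to 43.2 CPM in that library B against 2.66 and 4.92 CPM in A and C of the same gate, and to 21.4 CPM in naive library A against 5.21 and 11.1 in naive B and C. The GSK126 libraries of A549 reached 22.2 CPM, so naive library A is high among the naive libraries but not in the line as a whole. Leukocyte markers outside the family summed to 3.66 to 42.3 CPM over the 3 libraries of that gate, and their part in these values was not tested. A lower sum over a bulk library cannot tell fewer cells with a transcript from less transcript per cell.

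Naive A549 and naive H1944 held the same leading chains. Per kilobase of annotated exon, which is the scale used wherever genes are set beside each other, ITGB1, the common partner of most alpha chains, led the beta chains at 212 ± 37.1 CPM per kb in A549 and 138 ± 14.3 in H1944 (mean ± SD, n = 3 each). ITGB4, the hemidesmosome chain, came next at 56.3 ± 16.8 in A549 and 111 ± 2.54 in H1944. Among alpha chains ITGA6 (23.2 ± 0.628), ITGA3 (20.3 ± 5.23) and ITGAV (17.3 ± 2.01) led in A549, and ITGA3 (16.1 ± 1.2), ITGA6 (11.5 ± 0.298) and ITGAV (11.4 ± 0.382) in H1944. The spread of ITGA3 in A549 overlaps both of its neighbours in that order, and ITGA6 and ITGAV in H1944 do not differ beyond their spread. LAMA5 led the laminin alpha chains (23.9 ± 8.87 and 45.9 ± 0.782), LAMB1 the beta chains (64.6 ± 2.46 and 63.1 ± 6.15) and LAMC1 the gamma chains (35.5 ± 4.12 and 53 ± 3.16).

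Of 37 members tested between the naive lines with edgeR's quasi-likelihood test and Benjamini-Hochberg adjustment over all genes, 8 were higher and 13 lower in H1944, where 48.4% of 17918 genes passed (21.2% and 27.2%). LAMA4, an alpha chain known from vessels and mesenchyme, stood apart most, at 6.52, 0.434 and 2.29 CPM in naive A549 and 137, 115 and 127 CPM in naive H1944 (log2 fold change 5.29 ± 0.37, edgeR adjusted p = 1.08e-12). LAMC3, a less common gamma chain, followed at 3.33, 1.74 and 2.44 against 17.7, 22 and 20.9 CPM (log2 fold change 2.93 ± 0.34, edgeR adjusted p = 4.28e-08). Both genes separate the lines without overlap. ITGA1, a collagen receptor chain, was higher in H1944 by 2.33 ± 0.25 (edgeR adjusted p = 5.43e-09), ITGB8 by 1.64 ± 0.49 (edgeR adjusted p = 0.00744) and LAMB3 by 1.41 ± 0.14 (edgeR adjusted p = 2.3e-09) on the log2 scale. ITGB4, LAMA5 and LAMC1 were higher by 0.49 to 0.89. Lower in H1944 were the collagen receptor chain ITGA2 (-1.64 ± 0.24, edgeR adjusted p = 1.41e-06), ITGB5 (-1.48 ± 0.17, edgeR adjusted p = 4.08e-08), ITGA6, ITGAV, ITGB1 and LAMA3. ITGA10, ITGA11, ITGAE, ITGB2, ITGB3, LAMA1 and LAMA2 were lower too. Of these 7 calls 6, all but that of ITGA11, were lost when single naive libraries were left out. That loss took naive A549 library A for ITGA10 (adjusted p = 0.0542), and for LAMA1 and LAMA2 naive A549 library A or H1944 library B or C (0.0551 to 0.136). For ITGAE it took A549 library B or H1944 library A or B (0.0972 to 0.138), for ITGB2 A549 library C or H1944 library A or B (0.0858 to 0.121), and for ITGB3 any naive library but A549 library C (0.0561 to 0.139).

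Integrin and laminin genes differed from naive cells under both agents. More of them passed under TGF-β1, as did more of all genes tested, so the larger count is not particular to them. Naive cells were unsorted and the labels give no day for them, while treated cells were sorted after 11 days. Agent, sorting and time in culture thus cannot be told apart in comparisons with naive cells. Verbs such as raised, lowered or changed describe differences from naive cells only. Against naive cells, with both gates of a treatment averaged, GSK126 changed 7 of 38 members in A549, 5 higher and 2 lower, where 6.96% of 19842 genes passed (3.59% higher and 3.37% lower). TGF-β1 changed 12 of 38 in A549, 9 higher and 3 lower, against 19.5% of genes (7.7% and 11.8%). In H1944, 18 members passed under GSK126 (13 higher, 5 lower) against 40.2% of 13621 genes (21.5% and 18.7%). In the same line 26 passed under TGF-β1 (20 higher, 6 lower) against 63.7% (32.1% and 31.6%). The median log2 fold change over the 38 members in A549 was -0.02 under GSK126 and 0.27 under TGF-β1, beside -0.18 and 0.04 over all genes tested. In H1944 only 29 members had enough reads to be tested, and 8 of these (ITGA4, ITGA8, ITGA10, ITGA11, ITGAX, ITGB3, LAMA1 and LAMA2) had a naive mean under 3 CPM and entered through treated libraries, so no share or median over the 29 is read as support. The naive libraries of a line serve as control for both agents. The spread between libraries of a group was wider in A549, with a common coefficient of variation in edgeR of 0.3605 against 0.0978 in H1944. Fewer calls in A549 are therefore not read as less change in that line. Between the lines, all 9 members that rose under TGF-β1 in A549 were among the 20 that rose in H1944 (45.0% of those), among them ITGA2, ITGA3, ITGA5, ITGA8, ITGA11, ITGAV, ITGB6 and LAMC1. Under GSK126, 3 of the 5 that rose in A549 (60.0%) were among the 13 in H1944 (23.1%), ITGA5 and LAMC1 among them. Of all genes tested in H1944, 32.1% rose under TGF-β1 and 21.5% under GSK126, and the overlap over all genes is not given here. ITGA8 and ITGA11 also entered the H1944 test through treated libraries. These overlaps are therefore not read as a trait of the family. Without the 2 background-rich A549 libraries the A549 counts were 10 under GSK126 and 17 under TGF-β1. The GSK126 count in A549 was 3 without library B of the high gate and 4 without naive library B or C.

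**Figure D1:**
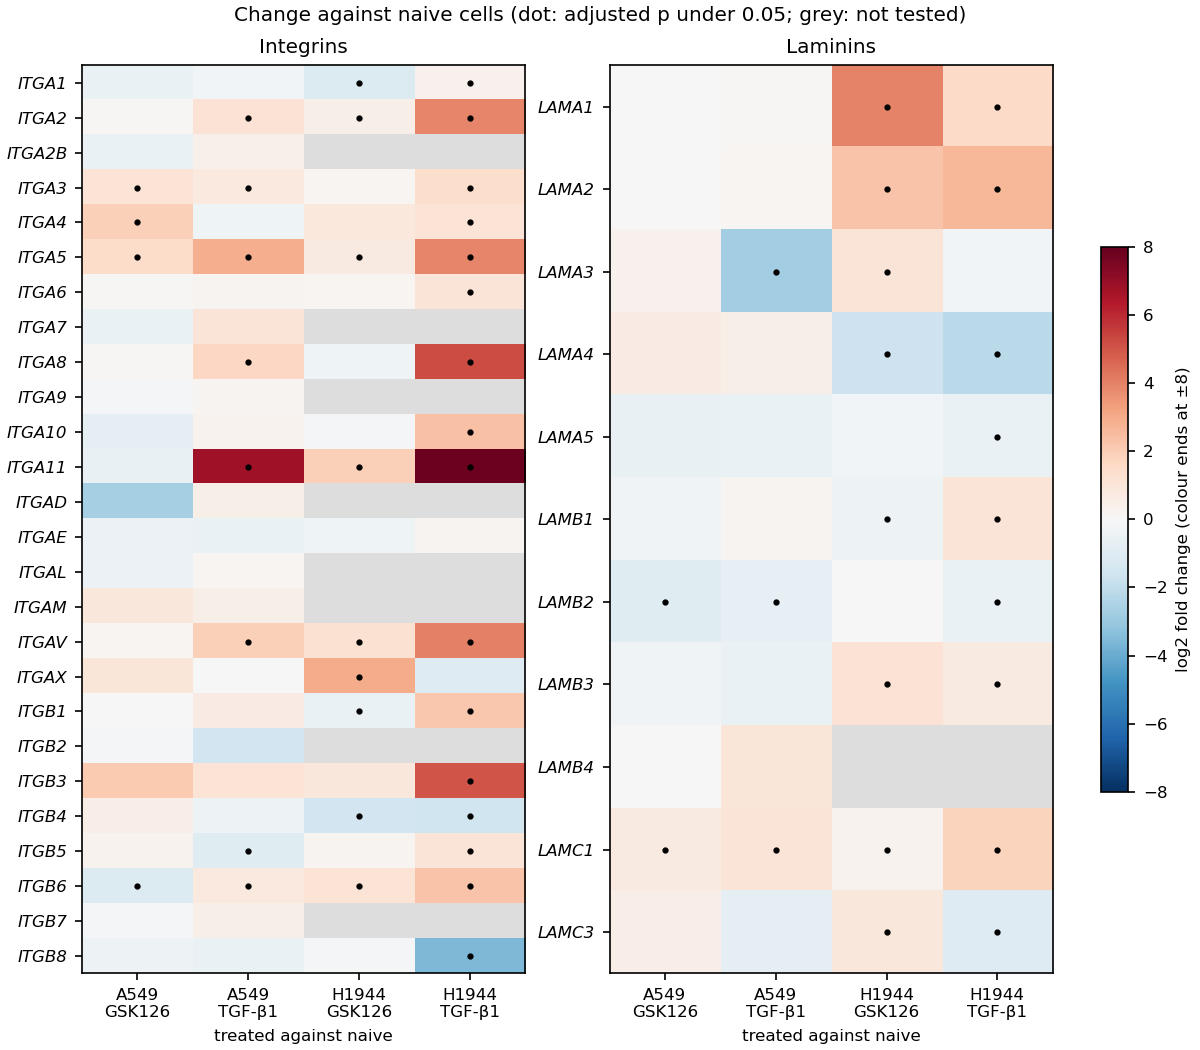
Log2 fold change of integrin and laminin genes against naive cells of the same line, with both gates of a treatment averaged, in red for higher and blue for lower. A dot marks an adjusted p under 0.05 in edgeR and grey a gene not tested. LAMC1 is red in all 4 columns, while ITGA11 is dark red under TGF-β1 in both lines.

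Promoter sequence was read for members that moved together. RefSeq entries on GRCh38.p14 were matched for 26 of the 38 genes, in 33 windows of the 250 bases before a transcription start, and 12 members had no entry. ITGA11, ITGAV and LAMC1 are shown as members that rose under TGF-β1 in both lines, and LAMB3 as one that rose in H1944 under both agents. ITGA2, ITGA5, ITGA8 and ITGB6 also rose under TGF-β1 in both lines and have windows, which are not printed. Of these, ITGA5 holds SMAD and TEAD matches and ITGB6 an E-box, while ITGA2 and ITGA8 hold none of the motifs below. That every gene printed holds a match is therefore not read as a result. Capitals mark matches to the motifs searched on both strands, which were AP-1 (TGANTCA), SMAD (CAGAC or GTCTG), E-box (CAGGTG or CACCTG) and TEAD (GGAATG or CATTCC). The windows are chr15:68432164-68432413 on the minus strand for ITGA11, chr2:186589806-186590055 on the plus strand for ITGAV, chr1:183023170-183023419 on the plus strand for LAMC1, and chr1:209651375-209651624 on the minus strand for LAMB3, the start farthest inside the gene of its 3.
ITGA11: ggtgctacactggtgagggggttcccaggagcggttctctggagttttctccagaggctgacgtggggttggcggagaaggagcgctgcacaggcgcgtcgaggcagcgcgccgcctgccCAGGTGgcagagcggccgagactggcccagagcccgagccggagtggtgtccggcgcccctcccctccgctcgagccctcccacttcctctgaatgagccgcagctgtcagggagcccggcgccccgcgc
ITGAV: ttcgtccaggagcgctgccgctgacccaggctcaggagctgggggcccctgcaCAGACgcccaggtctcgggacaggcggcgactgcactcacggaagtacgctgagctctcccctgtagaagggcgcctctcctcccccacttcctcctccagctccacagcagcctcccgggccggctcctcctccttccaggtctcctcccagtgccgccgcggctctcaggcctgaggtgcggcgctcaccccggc
LAMC1: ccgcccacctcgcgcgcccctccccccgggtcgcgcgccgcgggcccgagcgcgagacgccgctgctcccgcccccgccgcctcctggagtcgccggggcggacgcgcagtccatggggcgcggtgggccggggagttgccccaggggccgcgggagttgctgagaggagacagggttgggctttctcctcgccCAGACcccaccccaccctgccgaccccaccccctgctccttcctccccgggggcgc
LAMB3: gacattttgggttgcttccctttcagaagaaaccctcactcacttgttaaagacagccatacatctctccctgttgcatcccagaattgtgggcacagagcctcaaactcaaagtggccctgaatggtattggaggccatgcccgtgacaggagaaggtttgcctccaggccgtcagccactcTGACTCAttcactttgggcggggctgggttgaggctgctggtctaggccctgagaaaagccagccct
The ITGA11 window holds an E-box, the ITGAV and LAMC1 windows printed a SMAD match each, and the LAMB3 window printed an AP-1 match. ITGAV has 2 windows, and the second (chr2:186599955-186600204) holds none of the motifs. Of the other LAMB3 windows, chr1:209652426-209652675 holds an E-box and chr1:209652330-209652579 none. The windows printed for ITGAV and LAMB3 were picked with these matches known. Over 35116 such windows of all genes, 6.57% held AP-1, 38% SMAD, 17.5% the E-box and 11.9% TEAD. Of the 33 windows of members, 2 held AP-1 (of LAMA3 and LAMB3), 13 SMAD, 8 the E-box and 4 TEAD. In the LAMA3 window 1 of the 2 AP-1 matches overlaps the E-box. These are matches of letters, not sites shown to be bound.

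Among the collagen receptor chains, ITGA11 and ITGA2 rose under TGF-β1 in both lines. In A549 ITGA11, a receptor chain for fibrillar collagens best known from fibroblasts, read 8.26, 2.75 and 3.35 CPM in the naive libraries, 7.74, 3.48 and 5.61 in the low and 1.91 and 1.43 in the high GSK126 gate, and 636 and 517 in the low and 639, 511 and 489 in the high TGF-β1 gate. In H1944 it read 1.68, 0.416 and 0.753 CPM in the naive libraries, 1.91, 3.71 and 2.3 in the low and 3.08, 3.11 and 8.67 in the high GSK126 gate, and 182, 211 and 204 in the low and 171, 219 and 177 in the high TGF-β1 gate. The TGF-β1 libraries lie far above all others in both lines (log2 fold change 6.77 ± 0.34, edgeR adjusted p = 1.41e-10 in A549, and 7.87 ± 0.23, edgeR adjusted p = 6.52e-25 in H1944). Under GSK126 ITGA11 rose in H1944 by 1.89 ± 0.40 (edgeR adjusted p = 0.000257) from 15 naive counts, and in A549 its change was -0.62 ± 0.37 (edgeR adjusted p = 0.412). Without naive library C the H1944 call under GSK126 was lost (adjusted p = 0.054). ITGA2, the alpha chain of the main collagen receptor of epithelia and platelets, read 34.6, 29.5 and 28.1 CPM in naive A549 and 79.4 and 62.1 in the low and 106, 67.2 and 71.5 in the high TGF-β1 gate (log2 fold change 1.14 ± 0.24, edgeR adjusted p = 0.00201). Naive H1944 held 9.67, 10.8 and 10.6 CPM of it and the TGF-β1 gates 134, 160.2 and 132 (low) and 174, 172 and 146 (high), which do not come near each other (log2 fold change 3.92 ± 0.14, edgeR adjusted p = 2.85e-22).

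Under GSK126 ITGA2 overlapped the naive range in A549, at 24.3 to 47.1 CPM, and in H1944 it stood at 15.6, 15.1 and 12.1 in the low and 21.5, 17.3 and 12 in the high gate (log2 fold change 0.49 ± 0.16, edgeR adjusted p = 0.0161). That small rise was lost without library A of the high gate or naive library A or C (adjusted p 0.0556 to 0.0992), and under 5 other settings (0.0533 to 0.205). ITGA1 fell under GSK126 in H1944, from 71.5, 87.3 and 72.1 CPM in naive cells to 38.9, 41.1 and 36.2 in the low and 36.3, 44.2 and 37.1 in the high gate, with no overlap (log2 fold change -1.09 ± 0.11, edgeR adjusted p = 5.46e-10). Under TGF-β1 it read 80.9, 104 and 85 (low) and 86.5, 109 and 81.7 (high), which overlaps the naive values, and its call (0.32 ± 0.11, edgeR adjusted p = 0.0102) was lost without naive library A or C or library B of the high gate (adjusted p 0.0612 to 0.118) and with the low gate alone, other filters or all 28 libraries fitted at once (0.0542 to 0.429). In A549 ITGA1 stayed at 5.42 to 23.9 CPM and passed in neither comparison. ITGA10, a cartilage collagen receptor chain, was listed at 0.42, 0.832 and 0.904 CPM in naive H1944 and 3.97, 6.63 and 3.92 (low) and 2.72, 2.91 and 4.32 (high) under TGF-β1 (log2 fold change 2.32 ± 0.61, edgeR adjusted p = 0.00124), on 15 naive counts. In A549 it read 1.43 to 9.98 CPM, with its highest value in the background-rich TGF-β1 high library B.

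**Figure D2:**
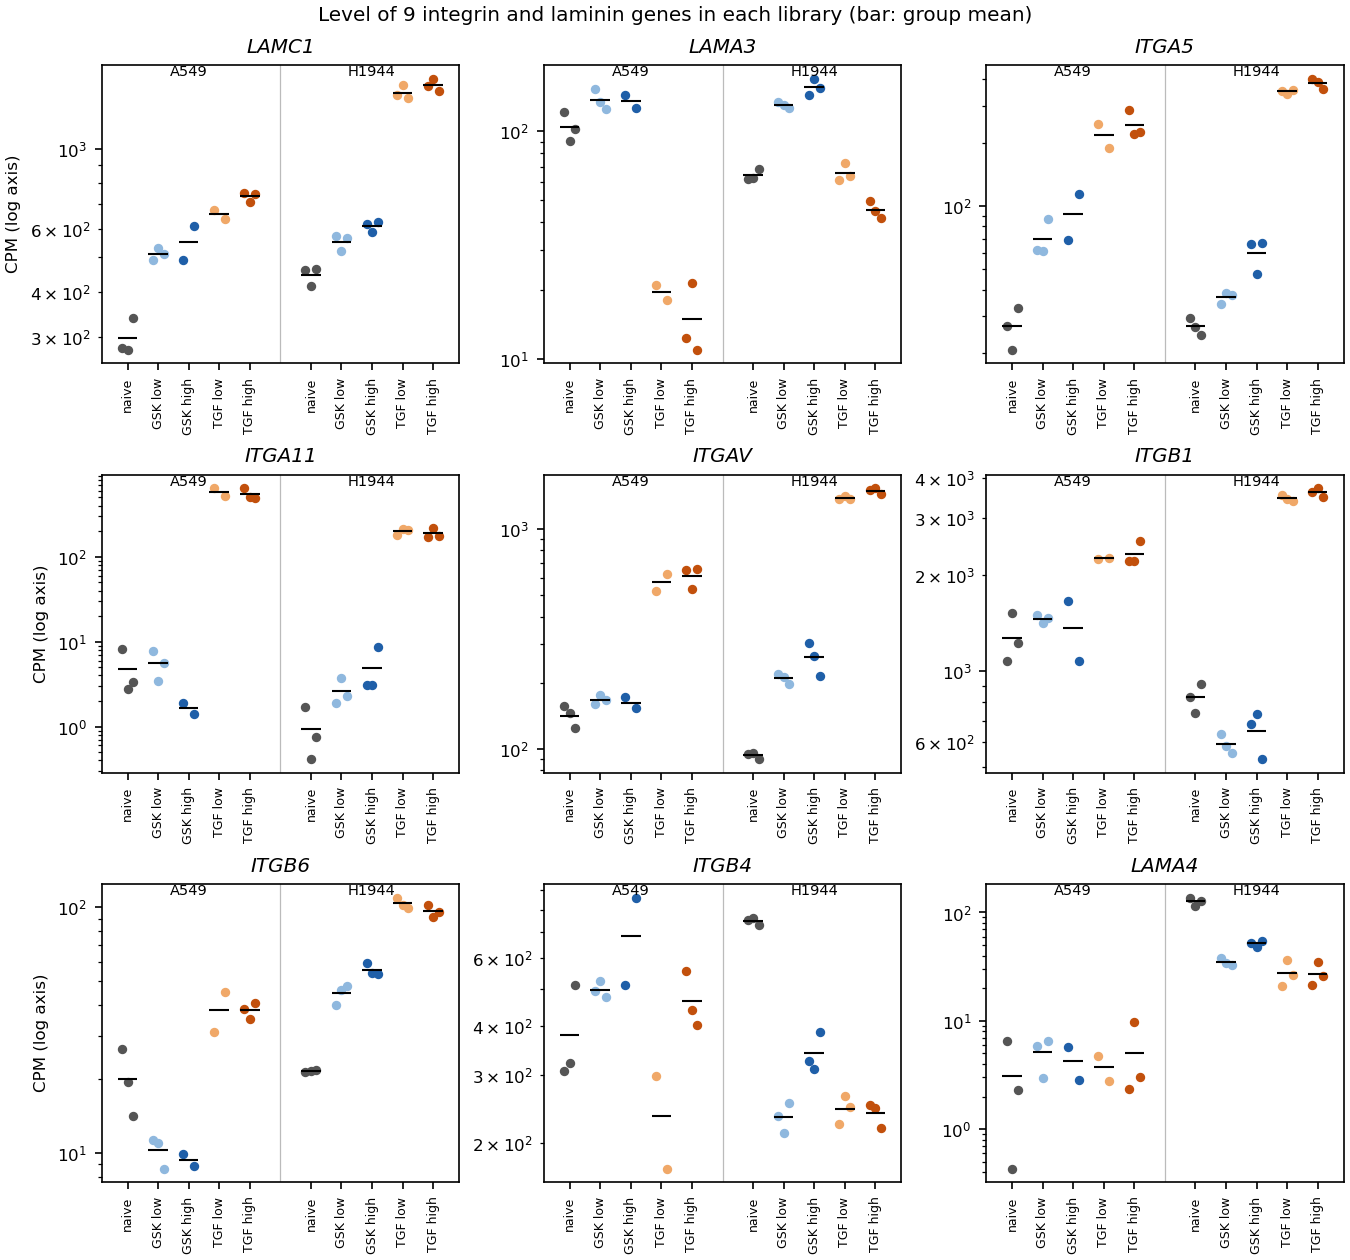
Level of 9 integrin and laminin genes in CPM on a log axis, 1 point per library and a bar for the group mean, with A549 left and H1944 right in each panel. ITGA5, ITGA11 and ITGAV lie highest under TGF-β1 in both lines, whereas ITGB4 and LAMA4 lie highest in naive H1944 cells within that line.

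Of the laminin receptor chains, ITGA3, which pairs with ITGB1 to bind laminins of the LAMA3 and LAMA5 type, read in A549 180.3, 160.1 and 257 CPM in the naive libraries and 439, 351 and 389 in the low and 475 and 586 in the high GSK126 gate. TGF-β1 libraries read 441 and 278 CPM in the low and 533, 393 and 353 in the high gate. It rose under both agents there, by 1.10 ± 0.26 (edgeR adjusted p = 0.0111) and 0.79 ± 0.25 (edgeR adjusted p = 0.0333), and no treated library fell into the naive range. Both of these calls rest on single libraries. The one under GSK126 was lost without library B of the high gate or naive library B (adjusted p 0.0515 to 0.167), and the one under TGF-β1 without naive library B or library A of either TGF-β1 gate (0.0692 to 0.219). The low gate alone ended both as well (0.136 under GSK126). In H1944 ITGA3 stood at 149, 171 and 152 CPM in naive cells and 144 to 232 under GSK126 (0.15 ± 0.09, edgeR adjusted p = 0.17). TGF-β1 took it to 392, 374 and 369 in the low and 439, 442 and 414 in the high gate, clear of both (log2 fold change 1.43 ± 0.09, edgeR adjusted p = 6.66e-16).

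ITGA6, the alpha chain of the hemidesmosome integrin, rose under TGF-β1 in H1944 from 73.1, 76.5 and 76.5 to 149.98, 159.6 and 154 (low) and 144, 144 and 150.4 CPM (high), again without overlap (log2 fold change 1.06 ± 0.09, edgeR adjusted p = 5.11e-12). Under GSK126 its H1944 values were 72.7 to 103 CPM, which overlaps the naive range. In A549 ITGA6 read 150.4, 156 and 148 CPM in naive cells and 159.5 to 258 in the treated ones, all above naive, but passed under neither agent. ITGA7, a muscle laminin receptor chain, held at most 10.4 CPM in any library and was not tested in H1944.

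ITGA5, ITGAV and ITGA8, receptor chains for fibronectin and other ligands with the RGD tripeptide, rose under TGF-β1 in both lines. ITGA5, which with ITGB1 forms the classical fibronectin receptor, read in A549 27, 20.8 and 32.9 CPM in the naive libraries and 61.7, 61.1 and 87.2 in the low and 69.1 and 114 in the high GSK126 gate. With TGF-β1 the low gate gave 245 and 188 CPM and the high gate 285, 219.7 and 224. The naive, GSK126 and TGF-β1 libraries form 3 separate ranges in that order (1.49 ± 0.25, edgeR adjusted p = 0.00081 under GSK126 and 2.93 ± 0.27, edgeR adjusted p = 1.63e-07 under TGF-β1). H1944 gave 29.4, 26.6 and 24.4 CPM in the naive libraries, 34.1, 38.8 and 37.7 in the low and 65.9, 47.7 and 66.4 in the high GSK126 gate, and 354, 340.3 and 357 in the low and 403, 387 and 359 in the high TGF-β1 gate, and the same 3 ranges appear (0.74 ± 0.12, edgeR adjusted p = 4.19e-06 and 3.88 ± 0.12, edgeR adjusted p = 1.33e-24). ITGAV, the shared alpha chain of the vitronectin receptors and of the integrins that activate latent TGF-β, read 156, 146 and 124 CPM in naive A549, 153 to 176 under GSK126, and 522 and 621 (low) and 654, 534 and 655 (high) under TGF-β1. Only the TGF-β1 libraries stand clear of naive cells there (1.89 ± 0.22, edgeR adjusted p = 2.9e-06, against 0.13 ± 0.20, edgeR adjusted p = 0.789 under GSK126). In H1944 the values were 94.6, 96.1 and 90.1 CPM in the naive libraries and 220.1, 213 and 198 in the low and 302, 266 and 215 in the high GSK126 gate. The TGF-β1 gates held 1376, 1413 and 1376 (low) and 1500.4, 1532 and 1451 CPM (high). Both agents raised it in this line, GSK126 by 1.22 ± 0.09 (edgeR adjusted p = 8.12e-13) and TGF-β1 by 4.02 ± 0.10 (edgeR adjusted p = 1.86e-26). Per kilobase, ITGAV was the highest alpha chain under TGF-β1 in the high gate of both lines, at 74.8 ± 8.5 in A549 and 182 ± 5.02 CPM per kb in H1944 (n = 3 each).

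ITGA8, an RGD receptor chain of mesenchymal cells whose ligands include nephronectin, was near the floor in naive H1944 at 2.52, 1.25 and 2.64 CPM. TGF-β1 libraries of that line read 79.4, 97.6 and 88.9 (low) and 80.2, 93.7 and 79 (high), far above it (log2 fold change 5.21 ± 0.21, edgeR adjusted p = 3.45e-21), and GSK126 libraries 0.288 to 2.87 CPM. In A549 the same gene read 5.36, 1.01 and 1.22 CPM in naive cells and 7.94 and 7.02 (low) and 4.33, 17.1 and 7.23 (high) under TGF-β1, where the ranges overlap through naive library A and the high-gate library A (log2 fold change 1.66 ± 0.52, edgeR adjusted p = 0.0303). That A549 call was lost without naive library B or C or library A or C of the low TGF-β1 gate (adjusted p 0.0856 to 0.15), and it stood at 2.37 (adjusted p = 0.000359) without the 2 background-rich libraries. ITGA2B, the platelet alpha chain, held at most 4.21 CPM anywhere. Platelet markers outside the family were similarly low, summing to 1.33 to 11.7 CPM in the high TGF-β1 gate of A549.

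Of the alpha chains shared with white blood cells, 2 changed under GSK126. ITGA4, which with ITGB1 binds VCAM1 and fibronectin, read 5.22, 1.45 and 4.57 CPM in naive A549 and 14, 13.4 and 20.7 in the low and 13.7 and 11.7 in the high GSK126 gate, so the ranges do not meet (log2 fold change 1.90 ± 0.54, edgeR adjusted p = 0.038). The call was lost without any 1 of the 3 naive or 5 GSK126 libraries (adjusted p 0.0535 to 0.159), while the log2 change itself kept between 1.55 and 2.17 over the alternatives. In H1944 ITGA4 read 1.26, 2.08 and 2.18 CPM in naive cells and 4.28, 7.23 and 2.35 (low) and 1.36, 3.75 and 5.5 (high) under TGF-β1, and its call (1.07 ± 0.47, edgeR adjusted p = 0.0466) was lost in 13 of 19 alternatives, among them those without naive library A, B or C, library B or C of the high gate, or library A or B of the low gate (0.0819 to 0.18). ITGAX, the alpha chain of a complement receptor of dendritic cells and macrophages, rose under GSK126 in H1944, from 0.841, 1.25 and 1.43 to 8.29, 10.9 and 12.4 CPM in the low and 10.1, 12.8 and 12.5 in the high gate, with no overlap (log2 fold change 2.95 ± 0.37, edgeR adjusted p = 5.47e-08). Its usual beta partner ITGB2 held 0.346 to 1.93 CPM in those 6 libraries. Leukocyte markers outside the family summed to 0.957 to 2.72 CPM in the low gate, where 4 of 10 were at 0 counts, and to 0.879 to 15.9 CPM in the high gate. ITGAE, which with ITGB7 binds E-cadherin, read 16.4 to 31.8 CPM in A549 and 10.8 to 27.1 in H1944 and passed in no comparison with naive cells. ITGA9, ITGAD, ITGAL and ITGAM held between 0 and 11.1 CPM. They passed in no comparison with naive cells in A549 and were not tested within H1944.

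Among the beta chains ITGB1 led in every group, and some partners of ITGAV went opposite ways in the 2 lines. In H1944 ITGB1 read 833, 739 and 911 CPM in the naive libraries and 634, 584 and 557 in the low and 685, 736 and 531 in the high GSK126 gate. TGF-β1 libraries read 3546, 3459.9 and 3403 CPM in the low and 3639, 3725 and 3487 in the high gate. GSK126 lowered it and TGF-β1 raised it there, and neither set of libraries touches the naive range (-0.53 ± 0.08, edgeR adjusted p = 2.63e-06 and 2.16 ± 0.09, edgeR adjusted p = 2.33e-20). In A549 the naive libraries held 1077, 1515 and 1224 CPM, the GSK126 libraries 1078 to 1654 and the TGF-β1 libraries 2213 to 2557, which lie above all naive values without passing (0.63 ± 0.24, edgeR adjusted p = 0.081). Without the 2 background-rich libraries ITGB1 passed under TGF-β1 in A549 at a log2 change of 0.56 (adjusted p = 0.0116). ITGB6, the epithelial partner of ITGAV that activates latent TGF-β, read in A549 26.5, 19.4 and 14.2 CPM in the naive libraries and 11.3, 10.9 and 8.64 in the low and 9.93 and 8.84 in the high GSK126 gate. With TGF-β1 the low gate gave 31 and 45.4 CPM and the high gate 38.6, 35 and 40.6. GSK126 lowered it and TGF-β1 raised it, with naive cells in between and no overlap (-1.07 ± 0.22, edgeR adjusted p = 0.00497 and 0.79 ± 0.21, edgeR adjusted p = 0.0107). The first call was lost without library B of the high gate (adjusted p = 0.0645), and the second without naive library C (0.0832), with the low gate alone or with no filter (0.0555 to 0.0822). In H1944 both agents raised ITGB6, GSK126 by 1.09 ± 0.11 (edgeR adjusted p = 7.32e-10) and TGF-β1 by 2.27 ± 0.11 (edgeR adjusted p = 8.25e-19), from 21.4, 21.6 and 21.8 CPM in naive cells. GSK126 libraries held 40.2, 46.3 and 48 (low) and 59.6, 54.2 and 53.4 (high) and TGF-β1 libraries 109, 102 and 99.5 (low) and 102, 91.6 and 95.8 (high) CPM. Exons of ITGB6 share 20.6% of their bases with AC092153.1 on the same strand.

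ITGB5, another ITGAV partner that binds vitronectin, went opposite ways under TGF-β1. In A549 it read 165, 134 and 169.8 CPM in naive cells, 112 and 76.3 in the low and 103, 79.1 and 82.8 in the high TGF-β1 gate, all of the latter below naive (log2 fold change -0.95 ± 0.22, edgeR adjusted p = 0.00359), and a fit of these groups alone ended the call (adjusted p = 0.0575). In H1944 it rose from 55.1, 59.9 and 62.1 CPM to 118, 117 and 96.8 (low) and 133, 127 and 100.2 (high), with no overlap (log2 fold change 1.02 ± 0.11, edgeR adjusted p = 3.01e-10). ITGB8, a further ITGAV partner that activates latent TGF-β, fell under TGF-β1 in H1944, to 0.916, 6.02 and 1.57 (low) and 1.36, 2.5 and 0.786 CPM (high) against 26.9, 22 and 24.4 in naive cells (log2 fold change -3.60 ± 0.27, edgeR adjusted p = 1.06e-13). GSK126 libraries of that line kept 18.7 to 31.6 CPM. In A549 ITGB8 read 0.999 to 18.2 CPM with wide overlap and passed under neither agent.

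ITGB3, the partner of ITGAV on vessels and of ITGA2B on platelets, was barely counted in naive H1944, with 0, 0.416 and 0.226 CPM from 4 counts. Under TGF-β1 it reached 10.7, 3.01 and 5.09 (low) and 10.4, 11.2 and 5.89 CPM (high) from 118 counts, a ratio of 36.4 with an exact 95% counting interval of 13.8 to 136, and it passed the test (log2 fold change 5.01 ± 0.64, edgeR adjusted p = 2.51e-08). Counts were pooled over libraries for this ratio. Naive library C, at 13280592 total counts, was far deeper than A (2378903) and B (2404464). The interval covers counting error only. In A549 it read 1.01, 1.16 and 0.61 CPM in naive cells and 1.99 to 5.99 under GSK126, above the naive range but short of the threshold (2.08 ± 0.63, edgeR adjusted p = 0.0569), and without the background-rich libraries it passed at 2.07 (adjusted p = 0.0186). Exons of ITGB3 share 51.6% of their bases with AC068234.1 on the same strand, so its reads are not certain to be its own. ITGB4 fell under both agents in H1944, from 752, 763 and 729 CPM in naive cells to 235, 213 and 253 (low) and 325, 309.6 and 387 (high) under GSK126 and 224, 264 and 248 (low) and 251, 246 and 218 (high) under TGF-β1. All treated libraries lie below every naive one (-1.53 ± 0.08, edgeR adjusted p = 3.02e-17 and -1.56 ± 0.08, edgeR adjusted p = 2.6e-18). In A549 ITGB4 spread from 172 to 859 CPM with overlap and did not pass against naive cells. ITGB2 and ITGB7, the leukocyte beta chains, held at most 7.54 CPM, and exons of ITGB7 share 42.1% of their bases with ZNF740 on the opposite strand.

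The 26 integrin genes together summed to 2155 ± 54.0 CPM in naive H1944, and to 6769 ± 107 in the low and 7105 ± 268 in the high TGF-β1 gate (mean ± SD, n = 3 each). ITGB1 alone made 828 ± 86.1 CPM of the naive sum, and 3470 ± 72.4 and 3617 ± 121 of those in the low and high TGF-β1 gates. Under GSK126 the H1944 sums lay below the naive one, at 1574 ± 17.1 (low) and 1887 ± 88.6 CPM (high). In A549 the 26 genes summed to 2463 ± 188 CPM in naive cells (n = 3). GSK126 libraries there stood above that, at 3084 ± 77.6 (low, n = 3) and 3357 ± 35.9 (high, n = 2), and TGF-β1 libraries at 4664 ± 264 (low, n = 2) and 5165 ± 271 (high, n = 3).

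LAMC1, the gamma chain of most laminins, rose against naive cells under both agents in both lines. The gene spans chr1:183023460-183145592 on the plus strand of GRCh38. In A549 it read 280.3, 277 and 339 CPM in naive cells, 490.2, 530.4 and 510.0 (low) and 489.8 and 609 (high) under GSK126 and 676 and 639 (low) and 754, 709.8 and 748 (high) under TGF-β1, in 3 ranges that do not meet (0.73 ± 0.21, edgeR adjusted p = 0.0414 and 1.03 ± 0.21, edgeR adjusted p = 0.0014). The GSK126 call was lost without any naive library, without library B or C of the low gate or without library B of the high gate (adjusted p 0.053 to 0.585). In H1944 the naive libraries held 459.9, 415 and 462 CPM, the GSK126 libraries 572, 519 and 566 (low) and 619, 585 and 625 (high) and the TGF-β1 libraries 1411, 1495 and 1382 (low) and 1493, 1560.3 and 1442 (high) (0.26 ± 0.07, edgeR adjusted p = 0.00335 and 1.78 ± 0.08, edgeR adjusted p = 2.57e-20). Other filters, the low gate alone and a fit of all 28 libraries ended the first of these calls (0.0608 to 0.0825). LAMC3 rose under GSK126 and fell under TGF-β1 in H1944, reading 17.7, 22 and 20.9 CPM in naive cells, 35.4, 34.4 and 54.4 (low) and 39.3, 30.1 and 54.4 (high) under GSK126, and 11.9, 8.43 and 9.4 (low) and 5.89, 9.99 and 10.6 (high) under TGF-β1. The 3 ranges do not overlap (0.89 ± 0.17, edgeR adjusted p = 8.19e-05 and -1.02 ± 0.21, edgeR adjusted p = 6.77e-05). In A549 LAMC3 held at most 7.34 CPM.

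LAMA3, an alpha chain of epithelial basement membranes, fell under TGF-β1 in A549 and rose under GSK126 in H1944. It read in A549 121, 90.4 and 102 CPM in the naive libraries and 153, 134 and 125 in the low and 144 and 127 in the high GSK126 gate. The TGF-β1 gates held 21.1 and 18.1 (low) and 12.3, 21.5 and 11 CPM (high). TGF-β1 lowered it below every other library (log2 fold change -2.79 ± 0.18, edgeR adjusted p = 3.11e-09), and GSK126 values lie above the naive ones without passing (0.32 ± 0.18, edgeR adjusted p = 0.385). In H1944 it read 61.8, 62.4 and 68 CPM in the naive libraries and 134, 130.1 and 127 in the low and 144, 170.0 and 155 in the high GSK126 gate. TGF-β1 libraries read 61.1, 72.3 and 63.5 CPM in the low and 49.4, 44.6 and 41.6 in the high gate. GSK126 raised it there (1.02 ± 0.09, edgeR adjusted p = 5e-11), and under TGF-β1 the low gate overlaps naive cells while the high gate lies below them (-0.19 ± 0.10, edgeR adjusted p = 0.0928). LAMB3, a beta chain of the same membranes, rose in H1944 under both agents, from 179, 194 and 179 CPM to 437, 398 and 378 (low) and 533, 444 and 484 (high) under GSK126 and 296, 308 and 292 (low) and 278, 301 and 289.9 (high) under TGF-β1 (1.16 ± 0.08, edgeR adjusted p = 2.55e-13 and 0.75 ± 0.08, edgeR adjusted p = 1.79e-09). In A549 LAMB3 read 59.7, 58.3 and 77.4 CPM in naive cells and 33.1 to 65.9 under TGF-β1, which overlap (-0.56 ± 0.20, edgeR adjusted p = 0.0594). Without the 2 background-rich libraries that fall passed, at a log2 change of -0.62 (adjusted p = 0.00861).

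The other laminin alpha and beta chains passed mostly in H1944, the line with the narrower spread between libraries. LAMA4 fell from 137, 115 and 127 CPM in naive cells to 38.3, 34.1 and 33.1 (low) and 52.7, 47.7 and 54.9 (high) under GSK126 and 21.1, 36.1 and 26.3 (low) and 21.3, 34.6 and 25.9 (high) under TGF-β1, all below every naive value (-1.68 ± 0.11, edgeR adjusted p = 1.62e-14 and -2.16 ± 0.12, edgeR adjusted p = 3.45e-17). LAMA1, the alpha chain of early embryonic basement membranes, rose under GSK126 from 1.26, 0 and 0.602 CPM on 11 counts to 8.93, 21.8 and 6.62 (low) and 7.03, 11.1 and 12 (high), with no overlap (log2 fold change 3.99 ± 0.52, edgeR adjusted p = 1.14e-07). Under TGF-β1 it read 0.916, 3.61 and 1.18 (low) and 0.906, 1.67 and 2.75 (high) CPM, which overlaps naive cells, and its call (1.51 ± 0.67, edgeR adjusted p = 0.0466) was lost in 12 of 18 alternatives, among them those without naive library B or C or without library B or C of either TGF-β1 gate (0.0526 to 0.213). Exons of LAMA1 share 10.3% of their bases with AP002409.1 on the opposite strand. LAMA2, the alpha chain of muscle laminin, had 9 naive counts in H1944. It read 1.91, 3.46 and 4.32 (low) and 2.42, 3.46 and 2.89 (high) CPM under GSK126 and 2.44, 4.82 and 3.92 (low) and 1.36, 4.58 and 3.93 (high) under TGF-β1. Against the naive counts, pooled over libraries, the ratio was 6.17 under GSK126, with an exact 95% counting interval of 3.05 to 14.1, and 6.85 under TGF-β1, with 3.34 to 15.9. These ratios lean on the deep naive library C, while the mean over the naive libraries was 0.801 CPM. Both LAMA2 calls (2.29 ± 0.63, edgeR adjusted p = 0.0038 and 2.64 ± 0.64, edgeR adjusted p = 0.000538) were lost without naive library C (adjusted p = 0.191 and 0.0572), and the ranges overlap through naive library A, at 2.1, 0 and 0.301 CPM in naive A, B and C.

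LAMA5, found in most adult epithelial basement membranes, fell under TGF-β1 in H1944 from 666, 658 and 644 CPM to 396, 448 and 413 (low) and 476, 487 and 401 (high), with no overlap (log2 fold change -0.52 ± 0.08, edgeR adjusted p = 2.53e-06). Under GSK126 it read 522 to 790.0 CPM in that line, around the naive values, and in A549 262 to 488 in naive and 172 to 379 in treated libraries. LAMB1 fell under GSK126 and rose under TGF-β1 in H1944, with 537, 456 and 547 CPM in naive cells, 412, 404 and 436 (low) and 410.3, 424 and 424 (high) under GSK126 and 928, 1020.4 and 882 (low) and 1048, 1113 and 1024 (high) under TGF-β1, in separate ranges (-0.41 ± 0.07, edgeR adjusted p = 2.19e-05 and 1.03 ± 0.08, edgeR adjusted p = 9.83e-14). In A549 LAMB1 read 503, 532 and 541 CPM in naive cells and 620.2 to 763 under TGF-β1 without passing (0.23 ± 0.20, edgeR adjusted p = 0.578). LAMB2, the beta chain of synaptic and kidney laminins, fell under both agents in A549, from 72.9, 65.1 and 95.7 CPM to 37.8, 44.7 and 45.8 (low) and 29 and 53 (high) under GSK126 and 64.3 and 46 (low) and 64.2, 49.2 and 53 (high) under TGF-β1, all below naive (-0.99 ± 0.23, edgeR adjusted p = 0.0132 and -0.67 ± 0.23, edgeR adjusted p = 0.047). The GSK126 call was lost without naive library C (adjusted p = 0.11) and with the high gate alone (0.11). The TGF-β1 call was lost in 13 of 19 alternatives, those without naive library B or C, high-gate library B or C or either low-gate library included (0.0641 to 0.32). In H1944 LAMB2 fell under TGF-β1, from 77.8, 101 and 88.6 to 64.8, 60.8 and 62.7 (low) and 52.1, 64.1 and 46.7 (high) CPM (-0.54 ± 0.10, edgeR adjusted p = 3.41e-05). LAMB4 held at most 6.87 CPM, did not pass against naive cells in A549 and was not tested within H1944.

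Setting the agents beside each other, 13 of 38 members differed between TGF-β1 and GSK126 in A549, 9 higher and 4 lower under TGF-β1, where 19.5% of genes passed (8.05% and 11.5%). In H1944, 26 of 29 tested members differed, 17 higher and 9 lower, where 63.8% passed (31.7% and 32.1%). The 29 include the 8 with a naive mean under 3 CPM that entered through treated libraries. A member that entered through 1 agent tends to differ between the agents, so this share is not read as support. ITGA11 (7.38 ± 0.31, edgeR adjusted p = 4.51e-11 in A549 and 5.98 ± 0.14, edgeR adjusted p = 2.94e-27 in H1944) was higher under TGF-β1 than under GSK126 in both lines. In H1944 ITGA8 was higher under TGF-β1 as well, at 5.54 ± 0.17 (edgeR adjusted p = 3.07e-24). LAMA3 was lower under TGF-β1 than under GSK126 in both lines, at -3.11 ± 0.17 (edgeR adjusted p = 7.23e-10) in A549 and -1.21 ± 0.08 (edgeR adjusted p = 2.96e-15) in H1944. ITGA4 in A549 (-2.23 ± 0.47, edgeR adjusted p = 0.00184) and ITGAX (-3.99 ± 0.39, edgeR adjusted p = 6.73e-11), ITGB8 (-3.46 ± 0.25, edgeR adjusted p = 5.1e-14), LAMA1 (-2.48 ± 0.38, edgeR adjusted p = 1.03e-06) and LAMC3 (-1.91 ± 0.17, edgeR adjusted p = 1.01e-11) in H1944 were also lower. ITGB5 was lower under TGF-β1 in A549 (-1.24 ± 0.20, edgeR adjusted p = 0.00013) and higher in H1944 (0.79 ± 0.08, edgeR adjusted p = 5.74e-10). Without library B of the high GSK126 gate 9 members passed in A549, and ITGA8, ITGB1, ITGB4 and LAMB1 were lost. Other libraries that ended one of these 4 calls were the remaining GSK126 ones except low C and the TGF-β1 ones except high B (adjusted p 0.0522 to 0.472 in all).

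The reporter gates differed in these genes under GSK126 in H1944. Of 29 tested members 8 were higher in the high gate and 0 lower, where 6.92% of 13621 genes passed (3.6% and 3.31%). ITGA5 read 34.1, 38.8 and 37.7 CPM in the low and 65.9, 47.7 and 66.4 in the high gate (log2 fold change 0.71 ± 0.13, edgeR adjusted p = 0.000517), and ITGB4 235, 213 and 253 and 325, 309.6 and 387 (log2 fold change 0.55 ± 0.10, edgeR adjusted p = 0.000412). In both genes every high-gate library lies above every low-gate library. LAMA4 (0.57 ± 0.15, edgeR adjusted p = 0.016), ITGB5 (0.46 ± 0.12, edgeR adjusted p = 0.0166), LAMB2 (0.40 ± 0.12, edgeR adjusted p = 0.0271), ITGA3 (0.34 ± 0.10, edgeR adjusted p = 0.0295) and ITGAV (0.33 ± 0.10, edgeR adjusted p = 0.0372) passed as well, with ITGAV overlapping. Same-letter libraries of these gates deviate together, and with the letter as a replicate block in a fit of the gates alone 7 passed and ITGAV did not (adjusted p = 0.0611). All 8 calls were lost when all 28 libraries shared 1 estimate of spread, and leaving out library A of the high gate or library B or C of the low gate left 4, 3 or 5 members past the test. ITGA5 and ITGB4 passed whichever single library was left out, while LAMA4, ITGB5, LAMB2, ITGA3 and ITGAV were each lost without 3 or 4 of the 6 libraries (adjusted p 0.0543 to 0.329). Fibroblast markers summed to 38.3 to 50.5 CPM in the low and 65.6 to 105 CPM in the high GSK126 gate. These sums were mostly COL1A1, with a mean of 36.1 CPM in the low and 67.6 CPM in the high gate. The part of these markers in the gate differences was not tested.

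Under TGF-β1 in H1944 0 members passed between the gates with edgeR, where 0.0587% of genes did (0.0147% higher and 0.044% lower). An unadjusted p under 0.05 was reached by 3 members, and DESeq2 and limma-voom called 0. LAMA3 came closest, at 61.1, 72.3 and 63.5 CPM in the low and 49.4, 44.6 and 41.6 in the high gate, which do not overlap (log2 fold change -0.51 ± 0.12, edgeR adjusted p = 0.19). The gate effect of LAMA3 differed between the agents (log2 fold change -0.77 ± 0.16, edgeR adjusted p = 0.0153), and it was the 1 member of 29 to do so, where 0.44% of genes passed (0.0808% higher and 0.36% lower). That call was lost without low-gate GSK126 library B or C, high-gate TGF-β1 library B or C or any low-gate TGF-β1 library (adjusted p 0.0594 to 0.133). With the replicate block 2 members passed, LAMA3 among them. In A549 edgeR, with no pairing of libraries, called 0 of 38 members, and 0% of all genes, between the gates of either agent. There 4 members had an unadjusted p under 0.05 under each agent. DESeq2 and limma-voom called 0 under GSK126, and 1 and 4 under TGF-β1.

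**Figure D3:**
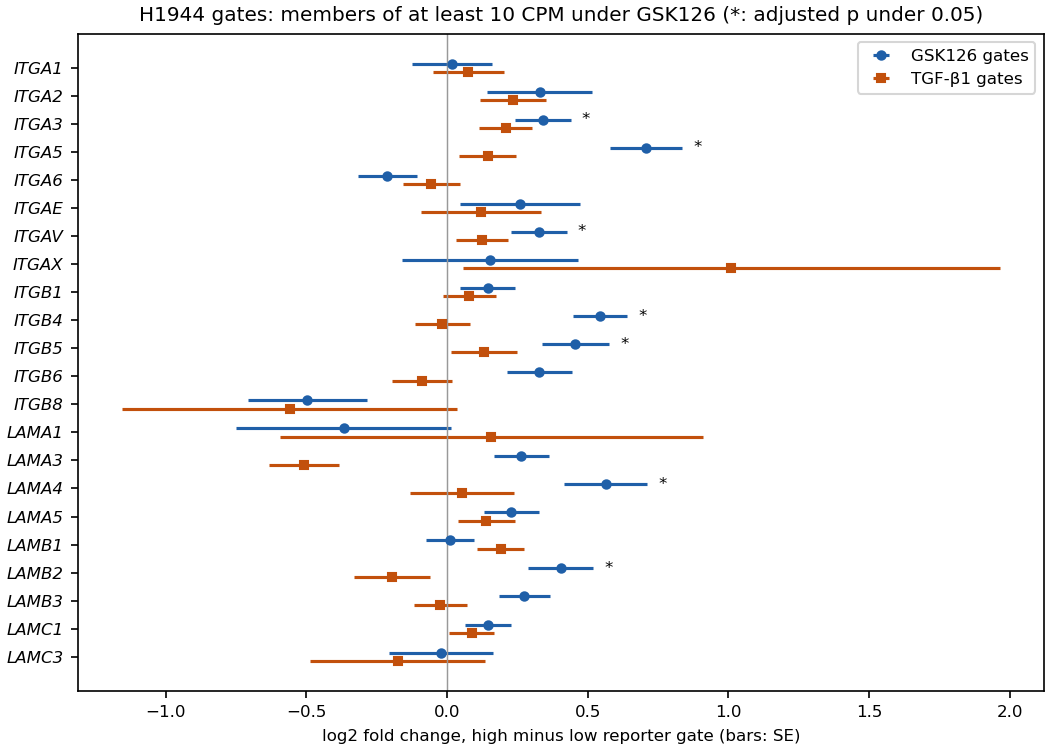
Log2 fold change of the high over the low reporter gate in H1944, with SE bars, for 22 members that average at least 10 CPM under GSK126. Circles are the GSK126 gates and squares the TGF-β1 gates, and asterisks mark members past the test under GSK126. ITGA5 lies right of 0 under GSK126 with no overlap between its gates.

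The response to an agent differed between the lines for 12 of 37 members under GSK126, 7 with a higher and 5 with a lower change in H1944, where 11.2% of 17918 genes passed (7.14% and 4.04%). Under TGF-β1 it differed for 17 of 37, 14 higher and 3 lower, where 21.6% did (11.7% and 9.82%). The difference is the change in H1944 minus the change in A549, from a joint fit. That fit shares its estimate of spread over both lines, with a common coefficient of variation of 0.2116. Fitted alone, A549 had 0.3605 and H1944 0.0978, so the joint SE and p-values may understate the spread in A549. LAMA3 differed under TGF-β1 (2.48 ± 0.18, edgeR adjusted p = 1.78e-11), falling in A549 and not passing in H1944, and ITGB5 (1.83 ± 0.22, edgeR adjusted p = 1.34e-07) went opposite ways. ITGB6 differed under GSK126 (2.18 ± 0.23, edgeR adjusted p = 8.57e-08), falling in A549 and rising in H1944. ITGAV (1.98 ± 0.18, edgeR adjusted p = 7.58e-10), ITGB1 (1.37 ± 0.20, edgeR adjusted p = 6.12e-06) and ITGA2 (2.66 ± 0.28, edgeR adjusted p = 1.49e-08) had the higher change in H1944 under TGF-β1, while the difference for ITGA11 did not pass (1.03 ± 0.51, edgeR adjusted p = 0.17). ITGB4 (-2.06 ± 0.25, edgeR adjusted p = 6.87e-07 under GSK126 and -1.33 ± 0.25, edgeR adjusted p = 0.000159 under TGF-β1) and LAMA4 (-2.23 ± 0.52, edgeR adjusted p = 0.00387 and -2.62 ± 0.48, edgeR adjusted p = 0.000129) had the lower change in H1944 under both agents. LAMB3 differed in the other direction under both (1.40 ± 0.18, edgeR adjusted p = 1.76e-06 and 1.15 ± 0.18, edgeR adjusted p = 1.03e-05). The calls of ITGA5 and LAMC1 under GSK126 and of ITGA5 under TGF-β1 were lost without any 1 of the 3 naive H1944 libraries and without several others (adjusted p 0.0508 to 0.195). For ITGA5 under GSK126 these were naive A549 library A or B, A549 GSK126 low C or high B, and H1944 GSK126 high B or any low library. For LAMC1 they were naive A549 library A, A549 GSK126 low B or C or high B, and H1944 GSK126 low B or C or high A. For ITGA5 under TGF-β1 they were naive A549 library C, A549 TGF-β1 low C, and H1944 TGF-β1 low A or C or high A or B.

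**Figure D4:**
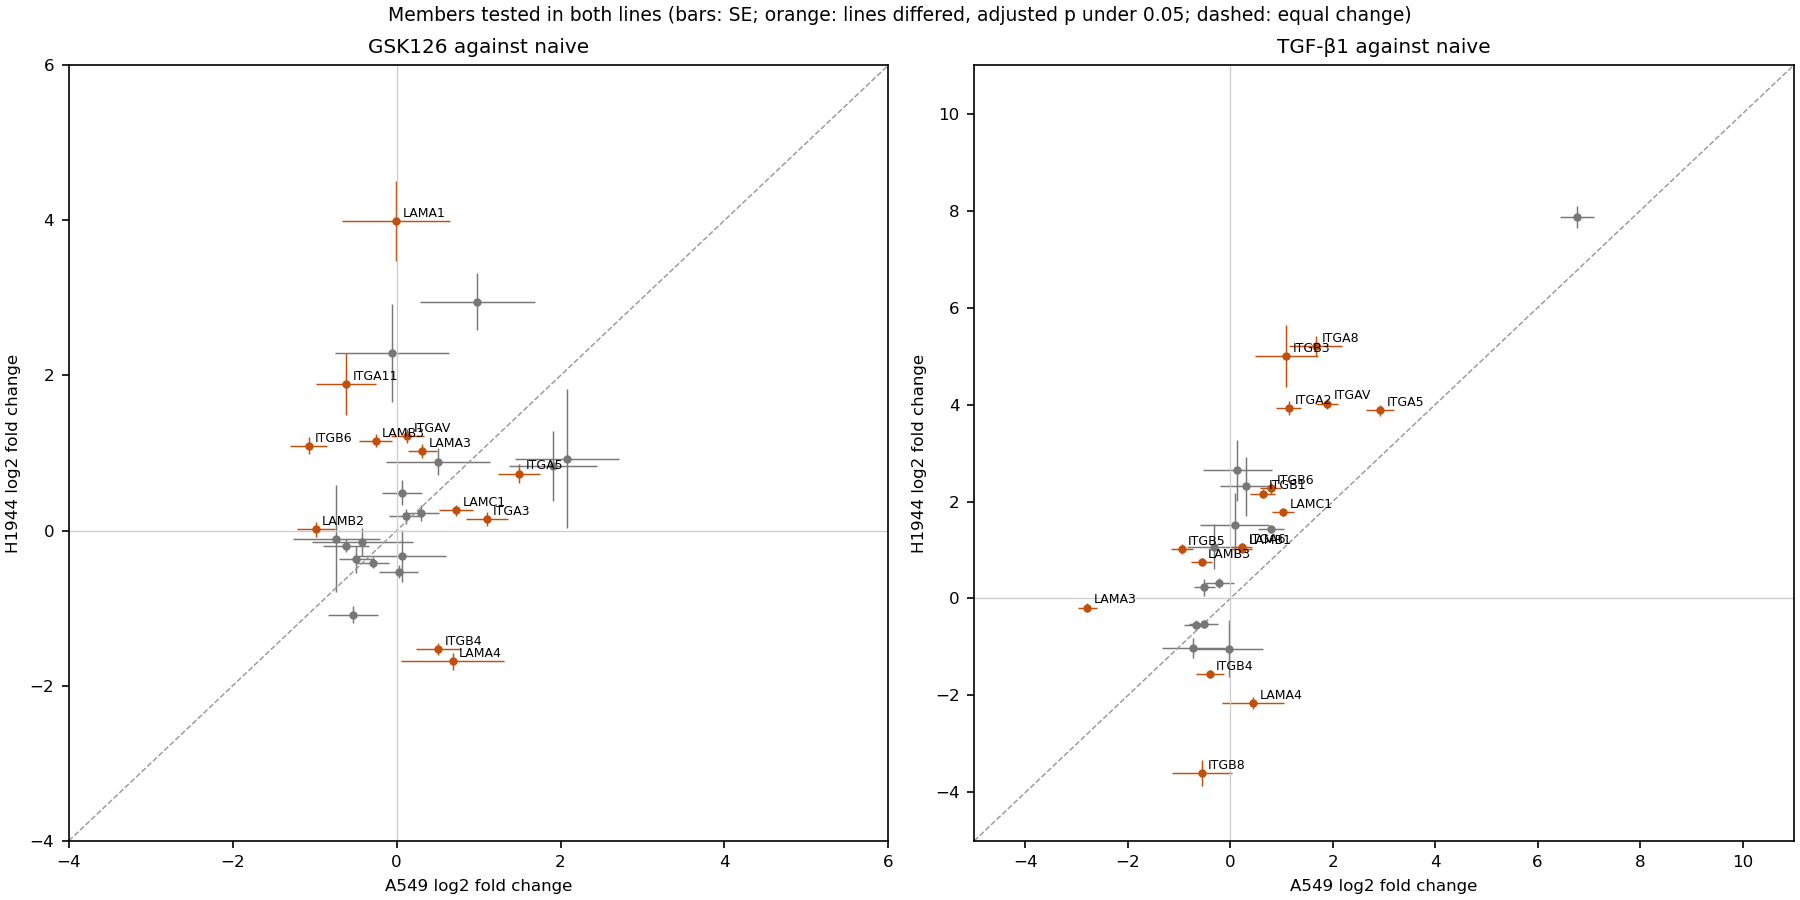
Change against naive cells in A549 (x axis) and H1944 (y axis), on the log2 scale with SE bars, for members tested in both lines, under GSK126 (left) and TGF-β1 (right). Named orange points are members whose change differed between the lines, and the dashed line marks an equal change. Most named points of the TGF-β1 panel lie above that line, with ITGB8, LAMA4 and ITGB4 below it.

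Genes that work with integrins and laminins were counted from 4 lists, which were chosen with earlier results of these data known. Of the adaptors and actin linkers on the inner face of integrins, 8 were higher and 2 lower of 35 tested under GSK126 in A549, and 18 and 5 under TGF-β1. In H1944 25 were higher and 2 lower of 34 under GSK126, and 29 and 2 under TGF-β1. Over all genes tested in A549, 3.59% were higher and 3.37% lower under GSK126, and 7.7% and 11.8% under TGF-β1. In H1944 these shares were 21.5% and 18.7% under GSK126, and 32.1% and 31.6% under TGF-β1. The list medians were 0.17, 0.80, 0.60 and 1.83 on the log2 scale, beside -0.18, 0.04, 0.00 and -0.01 over all genes tested. TNS1, a tensin that ties integrins to actin, rose under TGF-β1 in A549 by 4.45 ± 0.26 (edgeR adjusted p = 7.77e-10), and the adaptor PDLIM7 rose under both agents there, by 1.40 ± 0.21 (edgeR adjusted p = 0.000319) and 2.57 ± 0.22 (edgeR adjusted p = 8.91e-08). The docking protein NEDD9 rose in H1944 by 4.73 ± 0.18 (edgeR adjusted p = 1.86e-20) under GSK126 and 6.88 ± 0.16 (edgeR adjusted p = 2.91e-27) under TGF-β1, and fell under GSK126 in A549, at -1.18 ± 0.20 (edgeR adjusted p = 0.00101). The actin crosslinker ACTN1 (3.59 ± 0.10, edgeR adjusted p = 5.61e-26) rose in H1944 under TGF-β1.

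Of the hemidesmosome partners PLEC, DST, COL17A1 and CD151, 1 rose under each agent in A549 and 4 of 4 under each agent in H1944, where ITGB4 fell. Of all genes tested, 3.59% (GSK126) and 7.7% (TGF-β1) rose in A549, and 21.5% and 32.1% in H1944. COL17A1, a transmembrane collagen, was the 1 in A549 (1.24 ± 0.32, edgeR adjusted p = 0.0222 and 2.32 ± 0.31, edgeR adjusted p = 1.85e-05). In H1944 the plakin DST rose by 0.86 ± 0.09 (edgeR adjusted p = 5.49e-10) and 2.0 ± 0.09 (edgeR adjusted p = 1.52e-19), and the tetraspanin CD151 by 0.75 ± 0.13 (edgeR adjusted p = 9.47e-06) and 1.49 ± 0.13 (edgeR adjusted p = 2.97e-12). Basement membrane partners of laminin counted 7 higher and 3 lower of 22 under GSK126 and 5 and 7 under TGF-β1 in A549, and 13 and 3, then 16 and 2, of 21 in H1944. In either direction 6.96% (GSK126) and 19.5% (TGF-β1) of all genes passed in A549, and 40.2% and 63.7% in H1944. The list medians were 0.35 and -0.15 in A549 and 0.62 and 1.5 in H1944. The collagen chains COL4A1 (5.93 ± 0.27, edgeR adjusted p = 7.17e-11 in A549 and 4.04 ± 0.09, edgeR adjusted p = 3.46e-28 in H1944) and COL4A2 (4.84 ± 0.30, edgeR adjusted p = 2e-09 and 3.31 ± 0.09, edgeR adjusted p = 1.63e-25) rose under TGF-β1 in both lines. COL4A3 (-2.57 ± 0.22, edgeR adjusted p = 8.7e-07) and COL4A4 (-1.84 ± 0.18, edgeR adjusted p = 2.48e-06) fell under GSK126 in A549.

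Of the integrin ligands, 10 were higher and 2 lower of 29 tested under GSK126 in A549 and 13 and 6 under TGF-β1, and in H1944 17 were higher and 4 lower of 25 under either agent. Beside these counts, 6.96% (GSK126) and 19.5% (TGF-β1) of all genes passed in A549, and 40.2% and 63.7% in H1944. The list medians were 0.52 and 1.10 in A549 and 1.04 and 2.34 in H1944. FN1, fibronectin, the ligand of the ITGA5 receptor, rose in H1944 by 5.78 ± 0.12 (edgeR adjusted p = 2.26e-28) under GSK126 and 10.02 ± 0.13 (edgeR adjusted p = 6.93e-35) under TGF-β1. COL1A1, a ligand of the ITGA11 and ITGA2 receptors, rose in A549 under GSK126 (3.53 ± 0.39, edgeR adjusted p = 1.1e-05) and TGF-β1 (6.79 ± 0.42, edgeR adjusted p = 1.6e-09) and in H1944 under TGF-β1 (8.83 ± 0.15, edgeR adjusted p = 2.88e-31). THBS1, which binds several integrins and activates latent TGF-β, rose under TGF-β1 in A549 by 3.73 ± 0.25 (edgeR adjusted p = 3.36e-09). FBN1, a microfibril protein with an RGD sequence, fell under GSK126 in H1944, with a log2 change of -3.80 ± 0.09 (edgeR adjusted p = 7.46e-26). Fibroblast markers were higher beside these genes, and the 8 summed to 2.89 to 43.2 CPM in naive A549 and 339 to 502 in its high TGF-β1 gate, and to 10.2 to 13.9 in naive H1944 and 3834 to 4430 in its high TGF-β1 gate, mostly COL1A1. LUM averaged 35.3 CPM and THY1 0.413 CPM in the latter. Whether these values have a part in the changes of ITGA11 and the other members was not tested.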

How the data were processed

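Total RNA of A549 and H1944 cells was made into stranded libraries from low input, per the labels' protocols. The authors deposited raw counts of reads per gene, not normalized. Per the submitters' processing notes, bcl2fastq 2.20.0, STAR 2.6.0c, HTSeq 0.12.3 and the GRCh38 build were used. Read trimming, duplicate handling and the strand setting of the counting are not given in the sources used here. Symbols and exon lengths came from GENCODE release 29.

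Groups were taken from the labels. Counts were scaled by TMM and filtered by filterByExpr, and tested with edgeR 4.0.16 (quasi-likelihood, in R 4.3.3) over all genes, with Benjamini-Hochberg adjustment and a threshold of 0.05. Each line was fitted on its own over its 5 groups, and both lines jointly over 10 groups for differences between lines. The joint fit shares its estimate of spread over both lines. Its p-values, those between the naive lines included, may understate the wider spread in A549. CPM values use each library's total without TMM, while log2 fold changes come from the TMM-scaled fit. The procedure was tested on simulated data. DESeq2 1.42.0, limma 3.58.1 (voom), other filters, scaling, single gates, a replicate block, fits of fewer or more groups and each library left out were tried as alternatives, as was a fit without libraries over 150 CPM of olfactory receptor reads (378 genes, a measure of background). The block fit of the gates alone was chosen after seeing the data.

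Members were taken by symbol and are described with values in each library where they passed in a comparison with naive cells, and by range otherwise. From each list of other genes at most 3 of the smallest adjusted p per comparison with naive cells are named. In the text, 1 member and 1 gene of the lists are not reported here, though counts over the group hold them. The members and lists were chosen with earlier results of these data known. Overlapping exons make the counts of ITGB3, ITGB6, ITGB7 and LAMA1 uncertain. Total counts ran from 1660148 to 13280592, and intervals on counts cover counting error only, since no molecular identifiers were used in counting.

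Letters A to C recur across groups, and the labels do not say what they share. Deviations of same-letter libraries correlated between the GSK126 gates of H1944 (r = 0.12, 0.161 and 0.124 across genes). The labels do not state pairs. The main test of these gates did not pair libraries, and the letter served as a block in alternative fits only. Such deviations did not correlate in all same-letter pairs between the TGF-β1 gates of H1944 (r = 0.0755, 0.101 and -0.0177). Between the A549 gates same-letter r was 0.15 (A) and 0.0854 (B) under GSK126, and 0.116 (A) and 0.438 (C) under TGF-β1. A pair of different letters, TGF-β1 high B and low A, gave 0.125, and high B with low C gave -0.125. These values mirror each other because the low gate holds only 2 libraries, so they cannot decide whether letters mark pairs. Libraries of the A549 gates were not paired in the main test either.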

Additional observations from a re-analysis of the deposited data

Results flagged for a closer look

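The response of 12 members to GSK126 and of 17 to TGF-β1 differed between the lines in edgeR's joint fit, as the interaction of line and treatment. Values are the log2 change in H1944 minus that in A549. Under GSK126 the change was lower in H1944 for LAMA4 (-2.23), ITGB4 (-2.06), ITGA3 (-0.97), ITGA5 (-0.78) and LAMC1 (-0.48). It was higher for LAMA3 (0.72), LAMB2 (0.98), ITGAV (1.08), LAMB3 (1.40), ITGB6 (2.18), ITGA11 (2.55) and LAMA1 (4.09). ITGA11 was lost without naive H1944 library C (adjusted p = 0.0968) and LAMB2 without naive H1944 library A (0.0556).

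Under TGF-β1 the change was lower in H1944 for ITGB8 (-3.13), LAMA4 (-2.62) and ITGB4 (-1.33). Among those with a higher change were LAMC1 (0.60), LAMB1 (0.65), ITGA6 (0.68), ITGA5 (0.80), LAMB3 (1.15), ITGB1 (1.37), ITGB6 (1.37), ITGB5 (1.83), ITGAV (1.98), LAMA3 (2.48), ITGA2 (2.66), ITGA8 (3.54) and ITGB3 (3.79). LAMC1 was lost without naive H1944 library B (adjusted p = 0.0661).

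The gate effect of LAMA3 in H1944 differed between the agents in the interaction term, at -0.77 for TGF-β1 minus GSK126 on the log2 scale. The gate effect was 0.26 under GSK126 (edgeR adjusted p = 0.103) and -0.51 under TGF-β1 (edgeR adjusted p = 0.19), so neither passed on its own. The difference itself no longer passed in 10 of 21 alternatives, 7 of them with 1 library left out.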

How the results depend on the processing

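Over all alternatives tried, edgeR's calls held for 2 of 7 members in A549 and 14 of 18 in H1944 under GSK126 against naive cells, for 7 of 12 and 22 of 26 under TGF-β1, and for 9 of 13 and 24 of 26 between the agents. They held for 0 of 8 between the GSK126 gates of H1944, 14 of 21 between the naive lines, and 7 of 12 and 14 of 17 for the line differences under GSK126 and TGF-β1. The count in A549 under GSK126 (7) was 11 with limma-voom, 4 for the high gate alone and 4 for the low one. Under TGF-β1 (12) it was 21 with limma-voom. Between the TGF-β1 gates of A549 (0) it was 1 with DESeq2, 4 with limma-voom and 1 without the libraries over 150 CPM of olfactory receptor reads. Between the GSK126 gates of H1944 (8) it was 0 with all 28 libraries in 1 fit, 3 with a filter at 1 CPM, 4 with no filter and 3 with the compared groups alone. For the gate difference between agents (1) it was 0 with all 28 libraries, 0 with a filter at 1 CPM, 4 with DESeq2 and 5 with limma-voom. The cause was not tested. Leaving out single libraries gave 3 to 6, 9 to 15 and 9 to 16 calls in A549 (GSK126, TGF-β1, between agents), 15 to 21, 22 to 26 and 26 to 27 in H1944, 3 to 7 between the GSK126 gates of H1944, 0 to 4 for the gate difference, and 16 to 21, 9 to 12 and 15 to 21 between the lines (naive, GSK126, TGF-β1).

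With a replicate block the gate difference between agents had 2 calls, and 2 with the compared groups alone. With the compared groups alone and the block, 2 members passed between the TGF-β1 gates of H1944, LAMA3 and LAMB1, and 15 between those of A549, a fit with 1 residual degree of freedom. In that A549 fit LAMA2 turned to -1.96, from 0.28. In A549 the block gave 5 calls under GSK126, 9 under TGF-β1 and 11 between the agents. Depth limits the members under 3 CPM in naive H1944, which rest on 4 to 44 naive counts each.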
